A study of Mus musculus with 6 samples.

Results

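Fibrillar collagens and mesenchymal matrix genes were examined in Flk1-positive cells with and without Ldb1. The 10 genes were Col1a1, Col1a2, Col3a1, Col5a1, Col5a2, Tgfbi, Postn, Lum, Dcn and Thy1, a list chosen by name. The choice was made with earlier results of these data known. All 10 were measured, among 18193 genes, by 21 probe sets that the array annotation assigns to exactly 1 of them. For each gene the probe set of highest mean over the 6 arrays is described first, together with any others. Thy1 encodes a cell surface glycoprotein of mesenchymal and lymphoid cells rather than a matrix protein.

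The cells came from Ldb1+/+ and Ldb1-/- mouse embryonic stem (ES) cells, left to form embryoid bodies in suspension without leukaemia inhibitory factor. Flk1+ cells, labelled blast colony-forming cells and haemangioblast equivalents (precursors of blood and endothelium), were taken from both genotypes on day 4. There were 3 arrays labelled as biological replicates for each genotype. The number of clones behind each genotype is not stated in the labels, and p-values measure the spread between these arrays only.

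Fibrillar collagens are secreted as procollagen chains that wind into triple helices, lose their end peptides and assemble into fibrils. The chains of Col1a1 and Col1a2 together form type I collagen, Col3a1 alone forms type III, and the chains of Col5a1 and Col5a2 form type V, which starts and limits fibril growth. Lumican and decorin, from Lum and Dcn, are small leucine-rich proteoglycans that bind fibrils, while the related proteins of Tgfbi and Postn link collagen to cells. Such genes are known from fibroblasts and other mesenchyme, a later product of mesoderm than the haemangioblast.

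Values are log2 expression levels per probe set, so that a difference of 1 is a doubling. Array medians lay between 5.71 and 5.77, lower quartiles between 4.22 and 4.37 and upper quartiles between 7.92 and 8.27. Kdr, the gene of Flk1, read from 11.33 to 12.44 over the 6 arrays. Its knockout minus wild-type difference was −0.42, and −0.25, −0.81 and −0.20 between arrays of the same number. Ldb1 itself read 7.78, 7.31 and 8.31 in wild-type arrays and 7.25, 6.60 and 8.25 in knockout arrays, without passing the test (limma, adjusted p = 1.00). With the replicate number as a block, neither gene passed (limma, adjusted p = 0.493 for Kdr and 0.481 for Ldb1). Both were lower in the knockout array of every number, as 14.9% of all genes were. The deleted part of Ldb1 is not given in the labels, and a probe set outside it checks nothing. Control probe sets set the number 3 arrays of both genotypes apart from the rest. The 5′ control of Actb read 12.97 and 13.22 there against 11.19 to 11.49 in the other arrays.

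Between the genotypes, the group did not move together. Tgfbi stood higher in knockout cells by 1.55 on the log2 scale, a 2.93-fold difference, and was the 1 gene of the group whose wild-type and knockout arrays did not overlap. Thy1 and Col1a2 stood higher by 0.81 and 0.65 and, like Tgfbi, were higher in the knockout array of all 3 same-numbered pairs. The other 7 genes differed by between −0.19 and 0.11. In limma's test over all genes 0 of 10 members passed, where 0.0220% of all genes did. Of the 10, 2, Tgfbi and Thy1, had an unadjusted p under 0.05, where 3.85% of all genes did. Because the list was chosen with earlier results of these data known, these shares and those below do not test the 10 as a set.

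**Figure D1:**
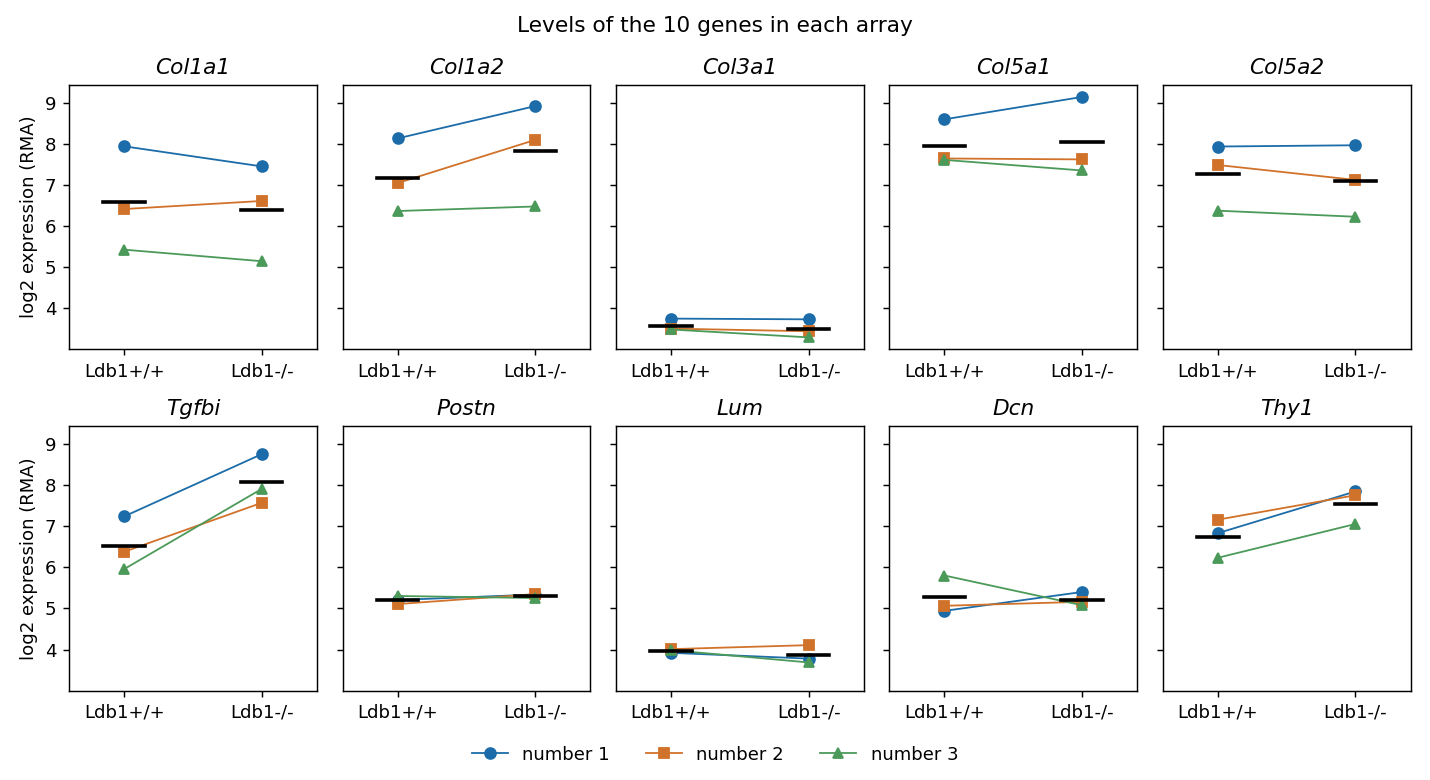
Log2 expression of the 10 genes (y axis, 1 panel each) in Ldb1+/+ and Ldb1-/- arrays (x axis), with lines joining arrays of the same number and black bars at the group means. The Tgfbi arrays of the genotypes do not overlap, and the number 1 arrays read highest for each of the 5 collagens in both genotypes.

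Arrays that shared a number also deviated together, so the difference was fitted again with the number as a block. In that fit Tgfbi passed the threshold (limma, adjusted p = 0.0251), and it was the 1 member called among 10. Among all genes 0.341% were called with the block and 0.110% were called as higher. At an unadjusted p under 0.05 the block gave 3 of 10 members, Tgfbi, Thy1 and Col1a2, against 8.94% of all genes. Of all genes 13.5% were higher in knockout cells in each of the 3 pairs and 14.9% lower, against 3 and 1 of the 10. Among genes above the median level these shares were 16.8% and 16.5%, against 3 and 0 of the 6 members there. The median difference over the 10 was 0.02, and −0.01 over all genes. It was 0.29 without wild-type replicate 1, 0.35 without knockout replicate 3 and −0.11 without knockout replicate 1, and 0.37 over the 6 members above the median level. By pair it was 0.30, 0.15 and −0.17 over the members for numbers 1, 2 and 3, against 0.00, 0.00 and −0.02 over all genes.

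**Figure D2:**
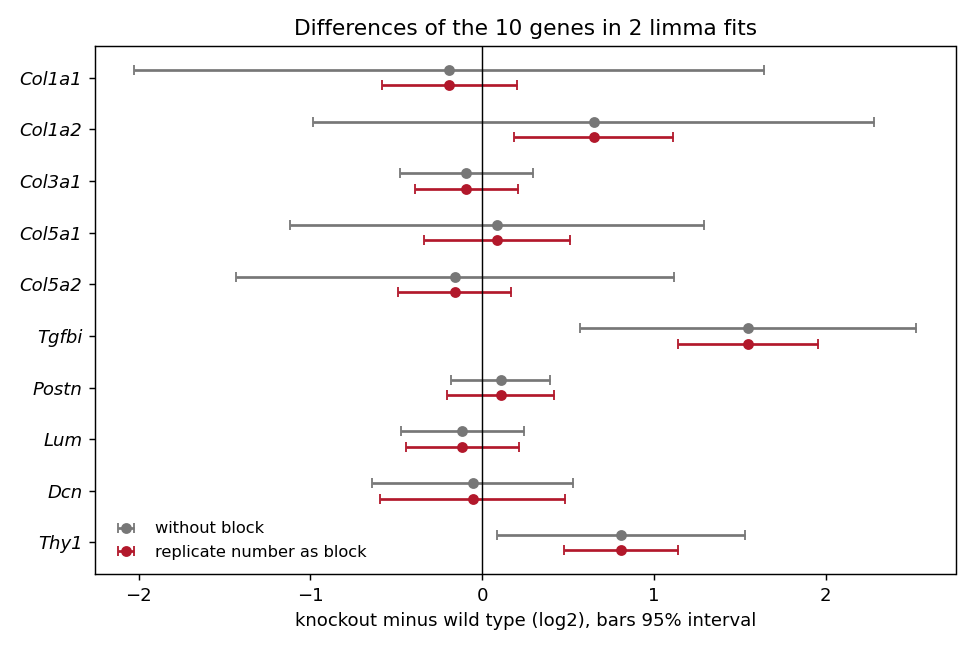
Knockout minus wild-type difference (x axis, log2) of the 10 genes (y axis) with 95% intervals from limma, without a block in grey and with the replicate number as a block in red. With the block the intervals of Tgfbi (1.14 to 1.96), Thy1 (0.48 to 1.14) and Col1a2 (0.18 to 1.11) lie above 0, before any adjustment over genes.

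The type I collagen genes were detected well above the lower quartile in most arrays and did not differ alike. Col1a2, the gene of the alpha 2 chain, read 8.13, 7.04 and 6.37 in wild-type arrays 1, 2 and 3, and 8.91, 8.09 and 6.48 in knockout arrays 1, 2 and 3. The groups overlapped, since arrays of one genotype were further apart than the genotypes. The difference of 0.65 (SE 0.69, 95% interval −0.98 to 2.28) did not pass (limma, adjusted p = 1.00, blocked 0.348). Without the number 3 arrays the blocked difference was 0.92 and passed (limma, adjusted p = 0.00188). That fit called 815 genes, against 62 with all arrays, and had fewer arrays from which to measure the spread.

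Col1a1, the gene of the alpha 1 chain, read 7.94, 6.41 and 5.43 in wild-type arrays and 7.45, 6.61 and 5.15 in knockout arrays. Its groups covered nearly the same range, with a difference of −0.19 (SE 0.77, 95% interval −2.03 to 1.64; limma, adjusted p = 1.00). With the block the interval was −0.58 to 0.20. Leaving out wild-type replicate 1 or knockout replicate 3 gave 0.48 or 0.44, so its direction rests on those arrays. Col1a1 lies on chromosome 11, whose genes had a median difference of −0.16, or −0.23 above the median level.

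Within an array, the Col1a2 level minus the Col1a1 level was 0.19, 0.63 and 0.94 in wild-type arrays and 1.47, 1.48 and 1.33 in knockout arrays. This contrast of the type I chains, chosen after its values were seen and therefore not tested, had no overlap between genotypes. The wild-type mean was 0.59 ± 0.38 (SD, n = 3) and the knockout mean 1.43 ± 0.08. The next brightest probe sets, 1423110_at minus 1423669_at, gave −0.98, −0.42 and −1.24 in wild-type and 0.07, 0.51 and −0.56 in knockout arrays, which overlap. No change of the chains relative to each other is read from these values.

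The other probe sets of these genes read lower. Col1a1 was also read by 1423669_at, with a difference of −0.47 (limma over all probe sets, adjusted p = 1.00), lower in all 3 pairs. Col1a2 was also read by 1423110_at, with a difference of 0.42, and by 1446326_at, whose mean of 3.54 lay below the lower quartile of every array, with a difference of 0.18. The mean differences of Col1a1 and Col1a2 probe sets had opposite signs, but not in every pair. The exceptions were 0.20 in pair 2 for the main Col1a1 probe set, −0.09 in pair 3 for 1423110_at and −0.12 in pair 1 for 1446326_at.

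The type V collagen genes were also detected and differed little between genotypes. Col5a1 read 8.59, 7.64 and 7.61 in wild-type arrays and 9.14, 7.62 and 7.35 in knockout arrays. Its highest and its lowest array were both knockout, and the difference was 0.09 (SE 0.51; 95% interval −1.12 to 1.29, blocked −0.34 to 0.51). Leaving out knockout replicate 1 gave −0.46, and leaving out wild-type replicate 2 or 3 gave −0.06 or −0.08. Further probe sets of Col5a1, 1416740_at and 1416741_at, differed by 0.33 and 0.03.

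Col5a2 read 7.93, 7.48 and 6.37 in wild-type arrays and 7.96, 7.12 and 6.23 in knockout arrays. These groups overlapped almost fully, with a difference of −0.16 (SE 0.54; 95% interval −1.44 to 1.12, blocked −0.49 to 0.17). Leaving out wild-type replicate 1 or knockout replicate 3 gave 0.17 or 0.28. Its second probe set, 1450625_at, differed by −0.19.

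Col3a1, the single chain of type III collagen, read 3.75, 3.51 and 3.49 in wild-type and 3.73, 3.44 and 3.30 in knockout arrays. Every array lay below its own lower quartile, and the second probe set, 1427884_at, had a mean of 3.39, so no clear signal of the transcript was seen in either genotype. The difference of −0.09 (SE 0.16) lay within the spread between arrays. It was negative in each of the 3 pairs and turned to 0.01 without knockout replicate 3. Col5a2, which lies next to Col3a1 on chromosome 1 in the RefSeq annotation, read well above the quartile in the same arrays.

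Windows around the annotated start of Col1a2 and of Col3a1 are shown because these collagen genes differed in whether they were detected. Each spans 250 bases before and 50 after the start, from RefSeq on GRCm38.p6. Capitals mark 4 short motifs searched on both strands: GATA, bound by GATA factors, CANNTG, bound by basic helix-loop-helix factors such as TAL1, CCAAT, bound by NF-Y, and CAGAC, bound by SMAD proteins. The first pair was chosen because LDB1 works with GATA and TAL1 factors in blood cells. Col1a2 lies at chr6:4505368-4505667 and Col3a1 at chr1:45311288-45311587, both on the plus strand.
Col1a2: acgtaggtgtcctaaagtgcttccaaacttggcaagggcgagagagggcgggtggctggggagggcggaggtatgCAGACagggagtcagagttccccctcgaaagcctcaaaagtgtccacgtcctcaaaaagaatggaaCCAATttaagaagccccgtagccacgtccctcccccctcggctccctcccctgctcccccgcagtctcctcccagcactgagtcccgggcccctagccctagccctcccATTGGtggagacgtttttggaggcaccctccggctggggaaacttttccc
Col3a1: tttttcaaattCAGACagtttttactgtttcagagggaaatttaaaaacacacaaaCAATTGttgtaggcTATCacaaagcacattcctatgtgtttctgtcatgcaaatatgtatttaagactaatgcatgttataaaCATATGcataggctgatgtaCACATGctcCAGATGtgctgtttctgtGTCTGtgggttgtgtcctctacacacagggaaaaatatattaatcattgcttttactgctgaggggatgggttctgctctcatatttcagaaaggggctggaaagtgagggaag
The Col1a2 window held 2 CCAAT and 1 CAGAC match, and 0 of GATA and CANNTG. The Col3a1 window held 1 GATA, 4 CANNTG and 2 CAGAC matches, and 0 of CCAAT. No match overlapped another motif in these windows. Among 32851 such windows of the mouse genome, 57.9% held GATA, 72.3% CANNTG, 37.4% CCAAT and 49.6% CAGAC, so each is common. The G and C content was 61.0% for Col1a2 and 37.7% for Col3a1.

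By their probe sets of highest mean, the collagens other than Col3a1 differed far more between array numbers than between genotypes. In both genotypes the number 1 array read highest and the number 3 array lowest for Col1a1, Col1a2, Col3a1, Col5a1 and Col5a2, an arrangement found in 13.9% of all genes and in 20.0% of those above the median level. The numbers themselves carry no order. For Col1a1 the mean of the 2 genotypes was 7.69, 6.51 and 5.29 for numbers 1, 2 and 3, a range of 2.41 beside the genotype difference of −0.19. The range was 2.10 for Col1a2, 1.65 for Col5a2, 1.39 for Col5a1 and 0.35 for Col3a1, for which no clear signal was seen. Of the other probe sets, 1423110_at (Col1a2), 1416740_at (Col5a1) and 1450625_at (Col5a2) had the arrangement too. It was absent for 1423669_at (Col1a1), 1446326_at (Col1a2), 1427884_at (Col3a1) and 1416741_at (Col5a1). For Col1a1, 1423669_at read 6.23, 5.60 and 5.95 in wild-type and 5.85, 5.34 and 5.19 in knockout arrays. Its genotype difference was −0.47.

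An F-test of the number in the blocked limma fit was added after these values were seen. It passed for 5 of 10 members, where 9.15% of all genes passed. These were Col1a1 (adjusted p = 0.0163), Col5a2 (0.0166), Col1a2 (0.0169), Col5a1 (0.0242) and Tgfbi (0.0383). Thy1 lay at the threshold (0.0500), and Col3a1, Postn, Lum and Dcn had values from 0.344 to 0.981. What the numbers stand for is not stated. The 5′ Gapdh control read 12.93 in each number 3 array and from 10.19 to 11.11 in those of numbers 1 and 2, with number 1 above number 2 in each genotype. A control of 18S ribosomal RNA read 9.39 and 9.26 in number 1, 8.56 and 8.51 in number 2 and 11.93 and 12.10 in number 3. The part of RNA quality or amount in the collagen values was not tested.

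Over the 6 arrays the collagens varied together. Pearson's r was 0.96 between Col1a1 and Col5a2, 0.88 between Col1a1 and Col1a2, and 0.82 between Col5a1 and Col5a2, as a description of arrays that share numbers. The lowest value between 2 collagens was 0.75, for Col1a2 with Col3a1. For Col3a1, which is also part of the mean profile below, no clear signal was seen. Tgfbi had r from 0.22 with Col3a1 to 0.67 with Col1a2 among the collagens, and 0.77 with Thy1. Among 11193 other genes above the median level, those most like the mean profile of the 5 collagens were Sec23ip (r = 0.998), Ece1 (0.995) and Sox12 (0.995), over 6 arrays. Ece1, the gene of an endothelin-converting enzyme, read 9.93, 9.35 and 8.73 in wild-type and 10.22, 9.43 and 8.70 in knockout arrays. So many candidates over so few arrays give values near 1 for some genes in any case.

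Tgfbi, the gene of a secreted matrix protein first known for its induction by TGF-beta, was the 1 member called between genotypes, and only with the block. It read 7.24, 6.38 and 5.96 in wild-type arrays 1, 2 and 3 and 8.75, 7.57 and 7.90 in knockout arrays 1, 2 and 3. The lowest knockout array lay above the highest wild-type array, which held for 3.45% of all genes. The means were 6.52 ± 0.65 (SD, n = 3) and 8.07 ± 0.61, a difference of 1.55 (SE 0.41, 95% interval 0.57 to 2.53). It did not pass without the block (limma, adjusted p = 0.761) and passed with it (adjusted p = 0.0251), at the same difference in both fits. Within the pairs the difference was 1.51, 1.19 and 1.95.

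All 4 probe sets of Tgfbi read higher in every knockout array than in any wild-type array. The differences were 1.80 for 1456250_x_at, 1.45 for 1437463_x_at and 1.00 for 1415871_at, beside 1.55 for 1448123_s_at. The suffixes mark probe sets that can bind several transcripts, and 1415871_at, without one, read 4.46, 4.63 and 4.47 in wild-type and 5.88, 5.07 and 5.62 in knockout arrays. Wild-type values of that probe set lay just above the lower quartiles, and the knockout values lay between the lower quartiles and just above the medians. When all 45037 probe sets were tested rather than 1 per gene, 0 of the 21 passed in either fit, where 0.0222% of all probe sets passed without the block and 0.0555% with it. The blocked adjusted p for Tgfbi's probe sets was then between 0.0616 and 0.267. With plain probe sets alone the blocked call was lost too (adjusted p = 0.133).

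**Figure D3:**
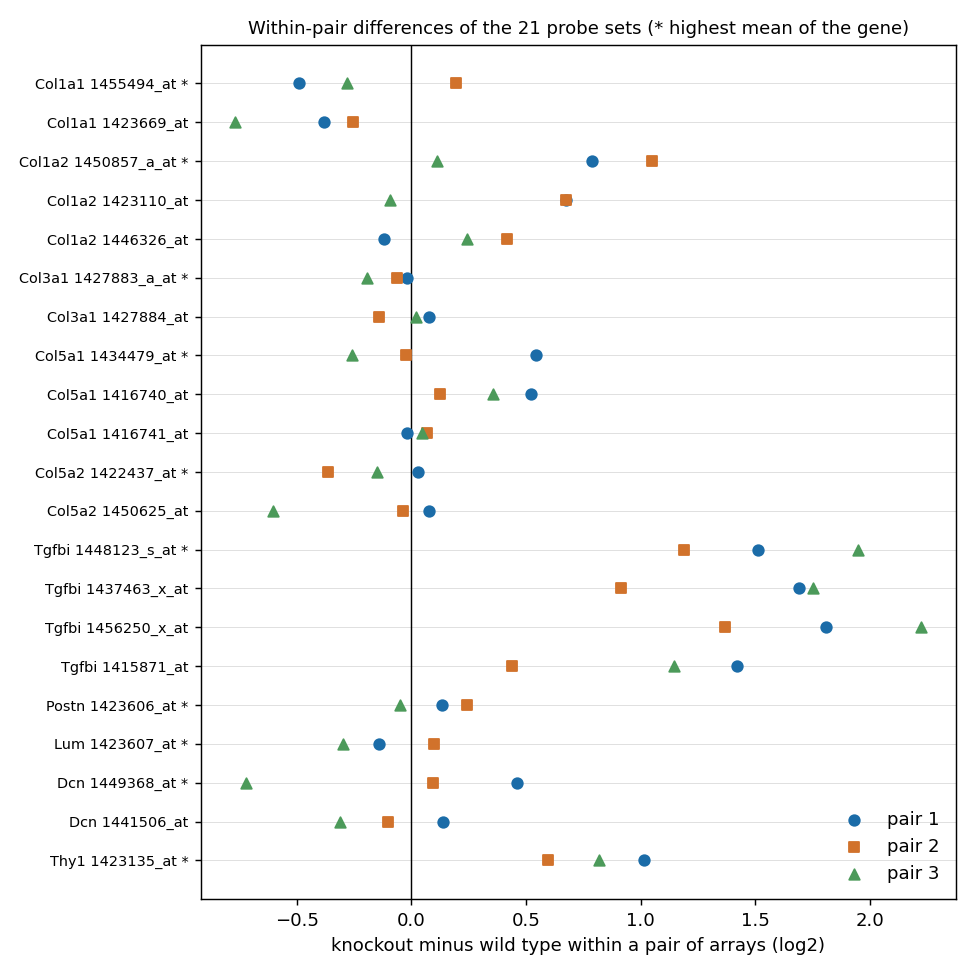
Knockout minus wild-type difference within each same-numbered pair (x axis, log2) for the 21 probe sets (y axis), with a symbol for each pair and a star at the probe set used for the gene. The 12 Tgfbi values lie between 0.44 and 2.22, while the collagen values spread on both sides of 0.

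The window at the start of Tgfbi is shown as that of the member called with the block, chr13:56609336-56609635 on the plus strand of GRCm38.p6, with the same motifs in capitals.
Tgfbi: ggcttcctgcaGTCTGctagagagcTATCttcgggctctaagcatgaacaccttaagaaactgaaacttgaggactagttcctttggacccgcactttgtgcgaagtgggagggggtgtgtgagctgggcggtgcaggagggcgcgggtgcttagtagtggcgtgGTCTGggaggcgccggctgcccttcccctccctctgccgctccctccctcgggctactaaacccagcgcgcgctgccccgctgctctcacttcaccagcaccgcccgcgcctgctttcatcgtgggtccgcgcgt
It held 1 GATA match, at position −225 from the start on the minus strand, and 2 CAGAC matches, and 0 of CANNTG and CCAAT. The shares of all windows given above apply, and a match is not a binding site.

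The genes most like Tgfbi over the 6 arrays were Ppm1j (r = 0.996), Hsd17b11 (0.992) and Tmem198b (0.990). Hsd17b11, a steroid dehydrogenase gene, read 10.32, 10.07 and 9.76 in wild-type and 10.96, 10.50 and 10.70 in knockout arrays. Its difference of 0.67 did not pass with the block (limma, adjusted p = 0.184).

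Postn, whose product periostin is related to the Tgfbi protein, differed little. It read 5.21, 5.11 and 5.30 in wild-type and 5.34, 5.35 and 5.25 in knockout arrays, below the median of every array. The groups overlapped, and the difference of 0.11 (SE 0.12, 95% interval −0.18 to 0.40) did not pass (limma, adjusted p = 1.00).

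The proteoglycan genes read low. Lum read 3.92, 4.01 and 3.99 in wild-type and 3.78, 4.11 and 3.69 in knockout arrays, below the lower quartile of each array, with a difference of −0.11 (SE 0.15). Dcn read 4.94, 5.07 and 5.80 in wild-type and 5.40, 5.16 and 5.08 in knockout arrays. Wild-type array 3 stood above the other 5, and that array also had a higher median and lower quartile (5.77 and 4.37) than the rest. The Dcn difference of −0.06 (SE 0.25) was 0.21 without that array and 0.01 without knockout replicate 3. The second Dcn probe set, 1441506_at, had a mean of 4.31. Dcn and Lum neighbour each other on chromosome 10 in the RefSeq annotation, and no clear signal was seen for Lum.

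Thy1 read 6.83, 7.16 and 6.23 in wild-type arrays and 7.84, 7.75 and 7.05 in knockout arrays. Only knockout array 3 fell within the wild-type range, and each knockout array was higher than the wild-type array of its number, by 1.01, 0.59 and 0.82. The means were 6.74 ± 0.47 (SD, n = 3) and 7.55 ± 0.43. The difference of 0.81 (SE 0.30, 95% interval 0.09 to 1.53) did not pass without the block (limma, adjusted p = 1.00) or with it (adjusted p = 0.0981). It passed in the blocked limma fits without the arrays of number 2 (adjusted p = 0.0468) or number 3 (0.00625). Without the arrays of number 1 it did not pass (blocked limma, adjusted p = 0.500). The 2 fits in which it passed called 267 and 815 genes, against 62 with all arrays, and had fewer arrays from which to measure the spread. A single probe set reads the gene.

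The wider collagen and matrix pathway was examined in 8 further lists, of which 95 of 102 genes were measured. In limma 0 of them passed the threshold, with or without the block. At an unadjusted p under 0.05 there were 5 without the block and 13 with it among the 95, where 3.85% and 8.94% of all genes had one. Of these 95 genes 41 were higher and 54 lower, with a median difference of −0.03. In bulk samples, fewer cells of a type and less RNA per cell cannot be told apart.

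Of 18 folding and modifying enzyme genes 8 were higher and 10 lower, with a median of −0.04. P4hb, which encodes a subunit of the collagen prolyl hydroxylase, had means of 13.31 ± 0.04 in wild-type arrays (SD, n = 3) and 13.07 ± 0.03 in knockout arrays, and Serpinh1, the gene of the collagen chaperone HSP47, at 10.44 ± 0.27 and 10.74 ± 0.39. Colgalt1, of collagen glycosylation, read from 10.37 to 10.72 in wild-type and from 10.87 to 11.16 in knockout arrays, without overlap (blocked limma, adjusted p = 0.255). Its chromosome 8 had a median difference of 0.15, or 0.26 among genes above the median level. P4hb lies on chromosome 11, where these medians were −0.16 and −0.23. All 3 lay above the upper quartile of every array, in both genotypes.

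Of 9 processing and cross-linking genes 7 were higher, with a median of 0.11. Pcolce, whose product enhances the removal of the procollagen end peptide, was higher in all 3 pairs, by 0.85, 0.33 and 1.09 (blocked limma, adjusted p = 0.201). The 6 other fibrillar collagen genes had a median of −0.06, with Col27a1 at 7.75 ± 0.61 and 8.04 ± 0.48 the 1 above the median level. Of the 10 fibril-associated and microfibrillar collagen genes 8 were lower, with a median of −0.15. Col9a1, a chain of type IX collagen, read 9.37, 9.05 and 8.18 in wild-type and 7.56, 8.17 and 6.93 in knockout arrays, barely without overlap. Its difference of −1.31 had the smallest blocked adjusted p of the pathway lists (limma, 0.0654).

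The 9 other small leucine-rich proteoglycan genes had a median of −0.03, and 2 of them, Bgn and Podn, lay above the median level. The 20 other matrix glycoprotein genes had a median of −0.16, with 15 lower. Fn1, of fibronectin, read from 12.84 to 13.97 in wild-type and from 12.98 to 14.05 in knockout arrays, with a difference of 0.06. Sparc, a collagen-binding protein gene on chromosome 11, differed by −0.61 and was lower in all 3 pairs (blocked limma, adjusted p = 0.176).

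The 11 receptor genes had a median of −0.06. Itgb1, the beta chain of the collagen-binding integrins, differed by 0.74 (blocked limma, adjusted p = 0.116). It lies on chromosome 8, whose genes had a median difference of 0.15, or 0.26 above the median level. The 12 protease and inhibitor genes had a median of 0.08. Mmp9, of a gelatinase, read 7.93, 7.38 and 6.40 in wild-type and 10.60, 8.43 and 8.47 in knockout arrays, without overlap. Its difference of 1.93 did not pass with the block (limma, adjusted p = 0.0671). Mmp2, of the other gelatinase, differed by −0.30.

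**Figure D4:**
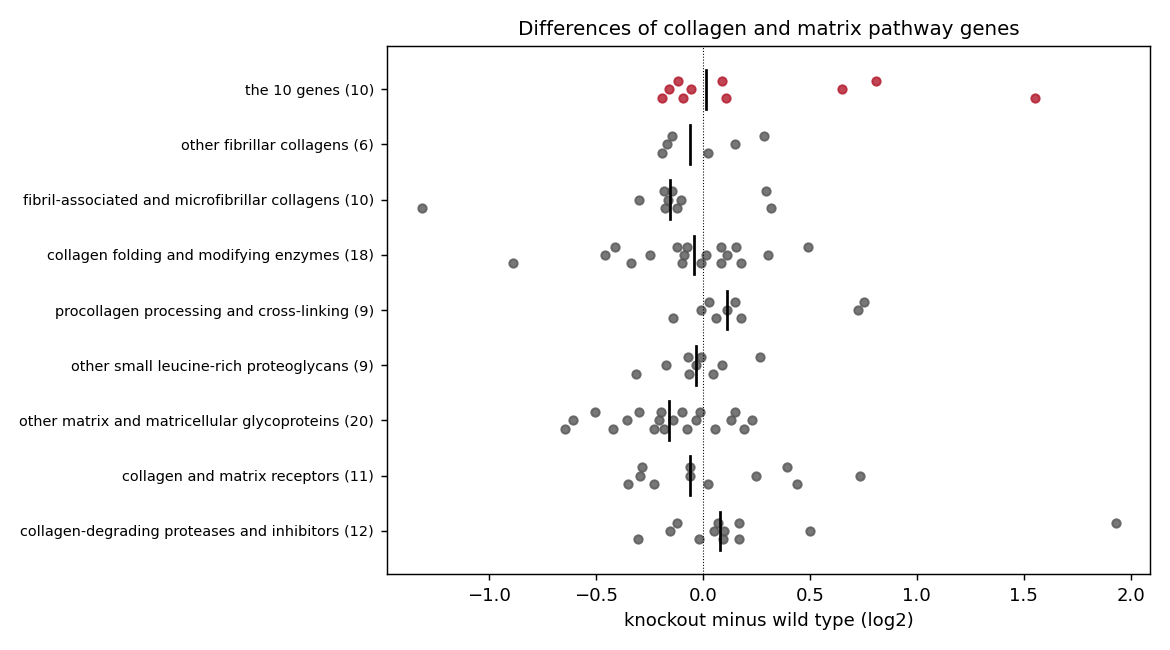
Knockout minus wild-type difference (x axis, log2) of the 10 genes in red and of 8 pathway lists in grey (y axis, number of measured genes in brackets), with a black bar at each median. The medians lie between −0.16 and 0.11, and single genes, Tgfbi, Mmp9 and Col9a1, lie furthest from 0.

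Markers of other cells were read beside these values. Of 12 fibroblast and feeder-type markers 11 were measured and 5 lay above the median level, and their mean level ran from 6.70 to 6.83 in wild-type and from 6.55 to 6.90 in knockout arrays. Fap and Mmp3 lay below the lower quartiles and Prrx1 and S100a4 read from 4.31 to 4.81 over the 6 arrays, and the 5 above the median level were Cdh11, Twist2, Pdgfrb, Mmp2 and Fbln2. Cdh11 read from 11.69 to 12.62, and Twist2 from 6.74 to 7.96. The part of such cells in the values was not tested. In limma 0 of these markers passed, and 0 had an unadjusted p under 0.05 with or without the block. Pdgfrb read 10.08, 8.75 and 7.80 in wild-type and 10.05, 8.89 and 8.33 in knockout arrays, the same arrangement by number as the collagens (F-test of the number, adjusted p = 0.0163). Mmp2 of this list had it too, and Cdh11 had the opposite one, lowest in number 1 and highest in number 3 in both genotypes. Of 10 endoderm markers 3 had the collagens' arrangement, Gata6, Col4a1 and Col4a2 (adjusted p = 0.0368, 0.0166 and 0.0163). The F-test of the number passed for 7 of these 10 markers, and the range between numbers was 2.51 for Col4a2. In the pathway lists the arrangement held for 7 of 20 matrix glycoprotein genes and 6 of 18 folding and modifying enzyme genes. Each other pathway list had it in 1 or 2 genes.

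Most markers of undifferentiated ES cells stood higher in knockout cells by the group means, but only some of them in every pair. Of 7 markers 5 were higher, with a median difference of 0.47. By pair the median was 0.19, 0.09 and 1.16, so that it was largest in the number 3 arrays, which the controls set apart. Their mean level ran from 8.40 to 8.68 in wild-type and from 8.62 to 9.34 in knockout arrays. Dppa5a was higher by 1.20 and passed only with the block (limma, adjusted p = 0.0315). Like Tgfbi and Thy1, Dppa5a, Zfp42 and Sox2 were higher in all 3 pairs. Pou5f1 (0.32, −0.44 and 1.55) and Nanog (−0.28, 0.04 and 1.16) were not, and Esrrb and Tdgf1 differed by −0.29 and −0.14. Of the 7, 6 lay above the median level, and their part in the Tgfbi and Thy1 values was not tested. Of 7 blood markers 6 were lower. Hbb-bh1 was lower and passed both without and with the block (limma, adjusted p = 0.00494 and 0.00101). Gata1 was also lower and passed only with the block (limma, adjusted p = 0.0194). The 7 endothelial markers had medians by pair of 0.59, 0.26 and −0.67, and the 9 measured mesoderm and haemangioblast markers had a median of −0.20, with 0 called by limma in either list.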

How the data were processed

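RNA was hybridised to Mouse Genome 430 2.0 arrays per the labels' protocols. The authors deposited log2 expression values per probe set, and per the submitters' processing notes RMA and the affy package were used, without versions. The arrays had 45101 probe sets, 64 of them controls. Gene names came from the platform annotation, updated by gene identifier, and 34945 probe sets had exactly 1 gene. The 10092 with several genes or none were tested as probe sets and not named. Per gene the probe set with the highest mean was kept.

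Knockout and wild-type arrays were compared with limma 3.58.1 (lmFit, eBayes) in R 4.3.3, with Benjamini-Hochberg adjustment over all genes and a threshold of 0.05, without and with the replicate number as a block. Deviations from the genotype means of same-numbered arrays correlated at 0.698, 0.350 and 0.446 across probe sets, each over 0.1, so the numbers were taken to pair the arrays. Fits were tested on simulated data. Precision is limited by the number of arrays.

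The 10 genes and the other lists, written from textbook knowledge, were chosen with earlier results of these data known. Genes were named by a rule. It took the 10, Ldb1 and Kdr, and from each list the genes past the threshold and up to 4 of the highest mean. It also took the 3 genes most correlated with the collagens and with Tgfbi. Fap, Mmp3, Prrx1, S100a4, Twist2, Sox2, Zfp42 and Esrrb were chosen after their values were seen. Alternatives were other scalings, filters, variance models and probe set choices, and arrays left out singly or in pairs. Sequences came from RefSeq tables on GRCm38.p6, where 5 of the 10 genes had a window: Col3a1, Col5a1, Postn, Col1a2 and Tgfbi. Plots were made in Python 3.11.15 with matplotlib 3.10.9.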

Additional observations from a re-analysis of the deposited data

How the results depend on the processing

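The number of arrays limits these results, and no detection calls were used. Postn, Lum, Col1a2, Tgfbi and Thy1 kept their direction in every alternative that tested them. Tgfbi passed in 6 of 19 alternatives, all with the replicate block, with differences from 1.00 to 1.91 over the 19. Thy1 passed in 2 and Col1a2 in 1. With the replicate block 62 genes, 25 probe sets and 1 member were called. Combined with the block, a mean over probe sets gave 48 genes and 1 member (Tgfbi, 1.45), plain probe sets 50 genes, and probe sets above the median level 55 genes and 1 member. Without the arrays of number 1, 2 or 3 the block gave 50, 267 and 815 genes and 1, 2 and 3 members. In these fits Col5a1 turned to −0.14 without number 1 and Dcn to 0.28 without number 3. The median over the members was 0.37 among probe sets above the median level, with or without the block, where 6 of the 10 were tested. With 1 array left out, 1 to 6 genes, 4 to 8 probe sets and 0 members were called, and the median ran from −0.11 to 0.35. Differences then ran from −0.77 to 0.48 for Col1a1, −0.21 to 0.0066 for Col3a1, −0.46 to 0.43 for Col5a1, −0.60 to 0.28 for Col5a2 and −0.22 to 0.21 for Dcn. Where a value turned or a call changed, the cause was not tested, beyond the fewer arrays or genes that the alternative holds. With all arrays in the fit, the block changed the call of no member but Tgfbi. Thy1 and Col1a2 passed only in blocked fits that left out a pair of arrays.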
